A study of Mus musculus with 7 samples.

Results

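The transcripts of 10 voltage-gated calcium channel subunit genes were measured in cortex taken from APP/PS1 mice fed a ketogenic diet (KD) or a control diet (CD). The 10 genes were chosen by symbol, from the 23413 gene symbols counted in the 7 mice, with no measured value used in the rule. Earlier results of these data were known when these genes were chosen. They encode the pores of the P/Q-type (Cacna1a), N-type (Cacna1b), R-type (Cacna1e), L-type (Cacna1c and Cacna1d) and T-type (Cacna1g, Cacna1h and Cacna1i) channels, and the alpha2delta subunits Cacna2d1 and Cacna2d2. All 10 were abundant enough to be tested, with between 616 and 18342 counts in every library.

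Voltage-gated calcium channels open when the membrane depolarises and let calcium into the neuron. Channels of the P/Q and N types sit largely at nerve terminals, where calcium entry triggers transmitter release, to which R-type channels also contribute. L-type channels on the soma and dendrites couple activity to gene transcription, and T-type channels open near rest and support burst firing. The large alpha1 protein forms the pore and sets the channel type, beta subunits bind it from inside the cell, and alpha2delta subunits bind it from outside and raise the number of channels at the surface.

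All 7 mice were transgenic APP/PS1 animals, a mouse model of Alzheimer's disease, and no wild-type mouse was sequenced in the libraries used here. At 6 months of age they were assigned to CD (4 mice, SD in the sample labels), with 74% of energy as carbohydrate, 10% as protein and 16% as fat, or to KD (3 mice), with under 0.5% as carbohydrate, 10% as protein and 90% as fat. Both groups stayed on the diet for 7 months and were 13 months old at the end. Each library was labelled as 1 mouse, and the sex of the mice was not given per library, although both sexes were used in the study. Each library was made from the bulk RNA of a 10 mg piece of frozen cortex, so fewer cells of a type and less RNA per cell cannot be told apart.

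Library totals ranged from 22272883 to 36614954 counts, with a median of 33935686 in CD and 23383393 in KD. Counts of replicate pairs differed beyond sampling noise (chi-square per gene of 15.8 to 68.6), so no pair was counted as 1 library. Cortical excitatory neurons were represented in every library, with Slc17a7, the vesicular glutamate transporter of these neurons, between 445 and 630 CPM (counts per 1000000 counts of the library). Libraries were not alike in cell content. The summed level of 8 oligodendrocyte markers was 1078 CPM in CD 3 and 1126 CPM in KD 3, 2092 CPM in KD 2, and from 3601 to 4189 CPM in the other 4. The sum of 6 markers of the meninges was 294 CPM in CD 4 and 42.6 to 138 CPM elsewhere, and that of 6 choroid plexus markers was 455 CPM in CD 1 and 10.6 to 71.9 CPM elsewhere.

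The pore subunits differ in the loop that selects calcium, and this stretch of the transcripts is shown because it separates the 5 high-voltage-activated pores from the 3 T-type pores. Each line is 45 bases of the coding strand from the third of the pore loops, read from the longest GENCODE M21 transcript that holds it (build GRCm38), with the codon of the acidic, calcium-binding residue in capitals. That codon reads GAG or GAA, for glutamate, in the P/Q-, N-, R- and L-type genes and GAT, for aspartate, in the T-type genes. The stretch of Cacna1a lay at chr8:84581317-84583568 on the plus strand and ran from exon 27 to exon 28. Cacna1b lay at chr2:24650619-24651115 (exons 27 to 28), Cacna1e at chr1:154443993-154444906 (exons 29 to 30), Cacna1c at chr6:118654446-118656147 (exons 26 to 27) and Cacna1d at chr14:30099234-30100731 (exons 26 to 27), all on the minus strand. Each of these 5 was interrupted by an intron after its base 35. The T-type stretches lay inside exon 24, at chr11:94426450-94426494 on the minus strand for Cacna1g, chr17:25383487-25383531 on the minus strand for Cacna1h and chr15:80376786-80376830 on the plus strand for Cacna1i.
Cacna1a: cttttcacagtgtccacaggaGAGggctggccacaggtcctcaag
Cacna1b: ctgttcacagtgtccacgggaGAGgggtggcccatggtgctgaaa
Cacna1e: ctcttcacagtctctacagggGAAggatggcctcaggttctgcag
Cacna1c: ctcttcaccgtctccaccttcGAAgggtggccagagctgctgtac
Cacna1d: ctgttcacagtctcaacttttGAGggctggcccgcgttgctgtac
Cacna1g: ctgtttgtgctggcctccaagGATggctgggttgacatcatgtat
Cacna1h: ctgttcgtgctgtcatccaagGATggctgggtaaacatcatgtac
Cacna1i: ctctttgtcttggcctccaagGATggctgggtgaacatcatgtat
Over these 45 bases the T-type genes shared 82.2% to 88.9% of positions with each other and 44.4% to 55.6% with the other pores. Cacna1a, Cacna1b and Cacna1e shared 71.1% to 80% and the L-type pair 77.8%.

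The question of the comparison was whether the diet altered the level of these channel transcripts. No member passed the test. At the raw p of at most 0.01 used by the study, 0 of the 10 members passed, where 0.321% of the 15881 tested genes did. The paper, which also used edgeR, reported more genes at that threshold than the 51 called here. At a raw p under 0.05, 0 of 10 passed, against 3.19% of all genes (1.66% higher and 1.52% lower in KD), and 0 of 10 had CPM ranges that did not overlap between the diets, against 4.2% of all genes. Adjusted p-values (edgeR's quasi-likelihood test, Benjamini-Hochberg over all tested genes) ran from 0.979 to 0.996 for the members. No gene of the 15881 had an adjusted p under 0.05 (0%), and the smallest was 0.979. DESeq2 and limma-voom also called 0 of the 10 members at either raw threshold. Of all genes they called 3.18% and 2.81% at a raw p under 0.05. At a raw p of at most 0.01 they called 132 of 20266 and 38 of 15881 genes. The log2 fold change was above 0 for 6 members, where 49% of all genes lay above 0. The median log2 fold change was 0.17 for the members and -0.0033 over all genes.

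**Figure D1:**
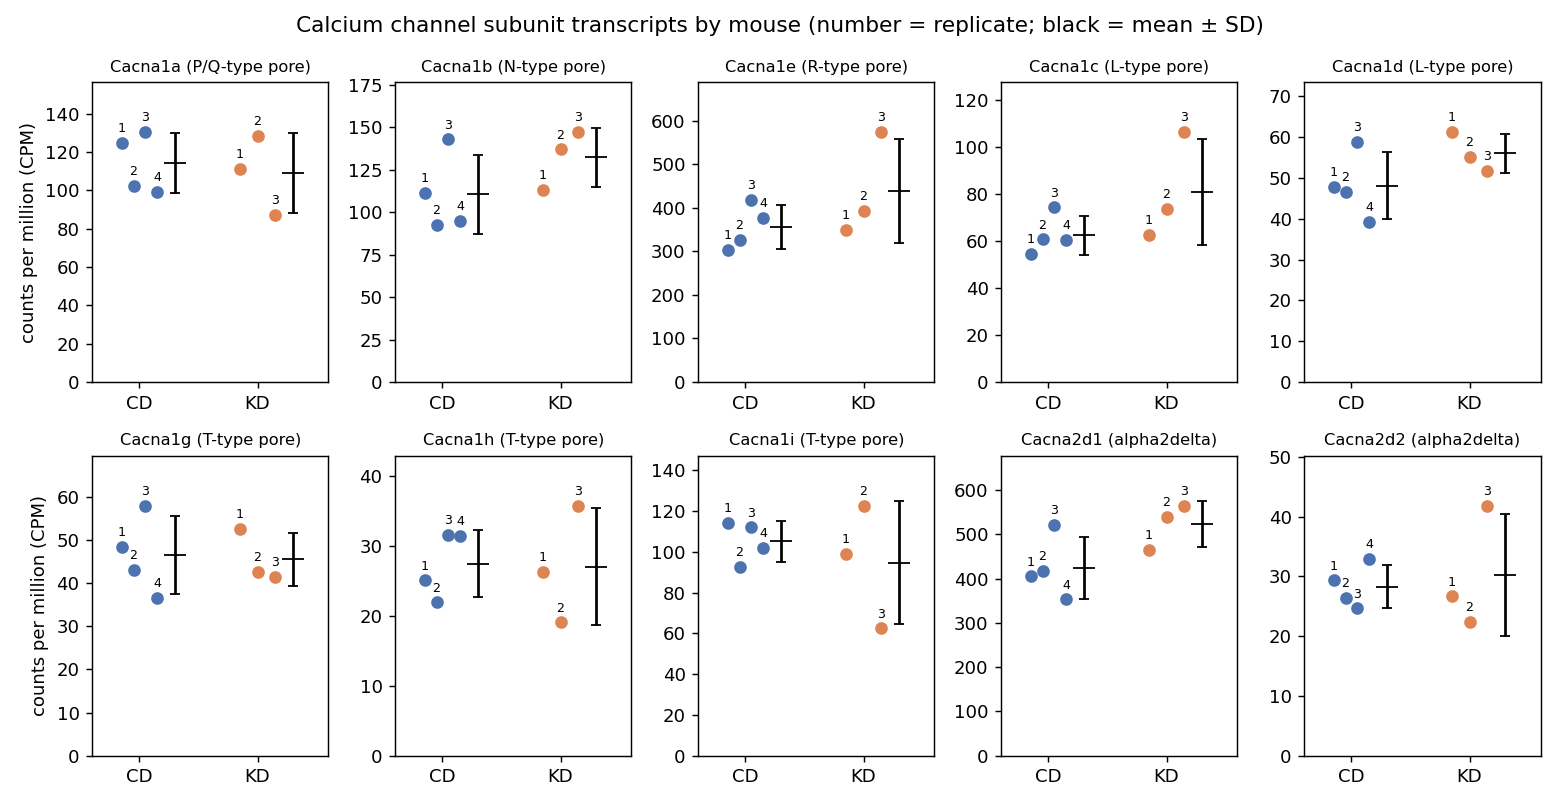
CPM (vertical axes, each from 0) of the 10 subunit genes in the 4 CD and 3 KD mice, 1 point a mouse with its replicate number, and the mean with SD in black. The CD and KD points overlap in all 10 panels, and KD 3 is the highest point for 6 genes.

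Among the P/Q-, N- and R-type pores, Cacna1b and Cacna1e had positive estimates and Cacna1a did not. Cacna1a, the P/Q-type pore of fast central synapses, was at 125, 102, 130 and 99.1 CPM in CD 1 to CD 4 and at 111, 129 and 87.2 CPM in KD 1 to KD 3. The diets overlapped, with the lowest value in KD 3 and the highest in CD 3. The log2 fold change of KD against CD was -0.053 (SE 0.16, 95% confidence interval -0.42 to 0.32, adjusted p = 0.990 by edgeR with Benjamini-Hochberg adjustment).

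Cacna1b, the N-type pore that also serves transmitter release, was at 112, 92.6, 143 and 94.9 CPM in CD and at 113, 137 and 147 CPM in KD. Every KD library stood above 3 of the CD libraries, and CD 3 stood above KD 1 and KD 2. This gave a log2 fold change of 0.27 (SE 0.16, interval -0.11 to 0.65, adjusted p = 0.979 by edgeR with Benjamini-Hochberg). Cacna1e, the R-type pore, was at 302, 326, 417 and 376 CPM in CD and at 349, 393 and 573 CPM in KD. Only KD 3 lay above the CD range. For Cacna1e the log2 fold change was 0.31 (SE 0.17, interval -0.086 to 0.71, adjusted p = 0.979 by edgeR with Benjamini-Hochberg), and without KD 3 it was 0.085.

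The L-type pores both had positive estimates. Cacna1c, the main L-type pore of brain, was at 54.5, 60.7, 74.2 and 60.3 CPM in CD and at 62.6, 73.7 and 106 CPM in KD. CD 3 was above KD 1 and KD 2, and KD 3 was far above all other libraries. Its log2 fold change of 0.38 was the highest of the 10 (SE 0.18, interval -0.026 to 0.78, adjusted p = 0.979 by edgeR with Benjamini-Hochberg), and it was 0.15 without KD 3. Cacna1d, the L-type pore that opens at more negative voltages, was at 47.9, 46.5, 58.9 and 39.1 CPM in CD and at 61.2, 55.1 and 51.8 CPM in KD. The KD libraries stood above CD 1, CD 2 and CD 4, and CD 3 lay between KD 1 and KD 2. Its log2 fold change was 0.23 (SE 0.15, interval -0.11 to 0.56, adjusted p = 0.979 by edgeR with Benjamini-Hochberg), and leaving out 1 library gave 0.13 (without CD 4) to 0.34 (without CD 3).

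The T-type pores had estimates below 0, each with an interval that ran well to both sides of 0. Cacna1g, the T-type pore known from thalamic relay neurons, was at 48.3, 43.1, 57.9 and 36.6 CPM in CD and at 52.6, 42.6 and 41.4 CPM in KD. All 3 KD values were inside the CD range. The fitted log2 fold change was -0.022 (SE 0.17, interval -0.41 to 0.37, adjusted p = 0.995 by edgeR with Benjamini-Hochberg). Cacna1h, a T-type pore also found in peripheral sensory neurons, was at 25.1, 21.9, 31.6 and 31.4 CPM in CD and at 26.3, 19.1 and 35.7 CPM in KD. The KD values ran on both sides of the CD range. For Cacna1h the log2 fold change was -0.018 (SE 0.20, interval -0.49 to 0.45, adjusted p = 0.996 by edgeR with Benjamini-Hochberg).

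Cacna1i, a T-type pore found mainly in neurons of the brain, was at 114, 92.5, 112 and 102 CPM in CD and at 98.96, 122 and 62.4 CPM in KD. KD 3 was below every other library and KD 2 above every other library. The log2 fold change was -0.14 (SE 0.21, interval -0.62 to 0.34, adjusted p = 0.983 by edgeR with Benjamini-Hochberg), and it was 0.096 without KD 3.

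The alpha2delta pair differed in level and in its spread. Cacna2d1, the alpha2delta-1 subunit bound by gabapentin and by thrombospondins, was at 405, 417, 522 and 353 CPM in CD and at 464, 539 and 564 CPM in KD. KD 2 and KD 3 were above all CD libraries, and CD 3 was above KD 1. Its log2 fold change was 0.31 (SE 0.14, interval -0.020 to 0.63, adjusted p = 0.979 by edgeR with Benjamini-Hochberg). Cacna2d2, which also binds gabapentin, was at 29.3, 26.4, 24.6 and 32.9 CPM in CD and at 26.6, 22.4 and 41.8 CPM in KD. KD 2 was the lowest and KD 3 the highest of all libraries. For Cacna2d2 it was 0.10 (SE 0.19, interval -0.34 to 0.55, adjusted p = 0.983 by edgeR with Benjamini-Hochberg), and it was -0.18 without KD 3.

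**Figure D2:**
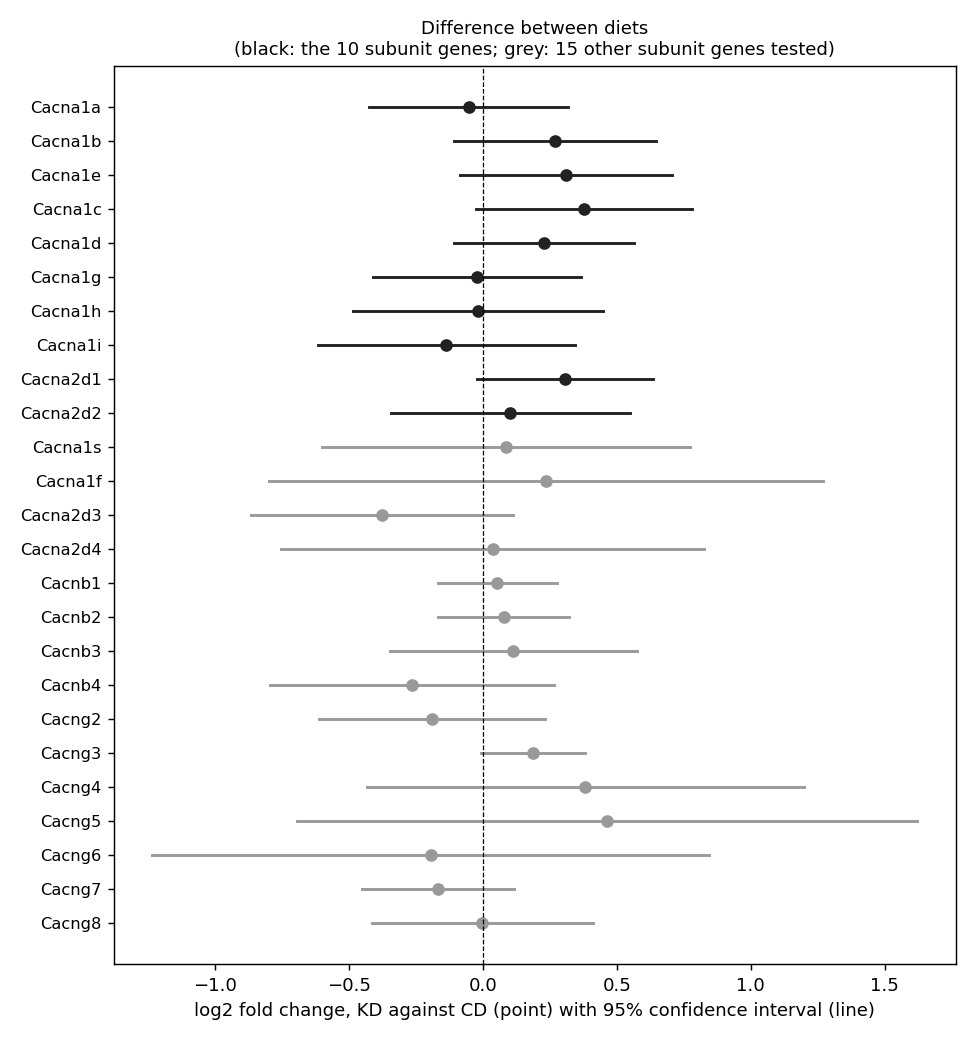
Log2 fold change of KD against CD (horizontal axis, points) with 95% confidence intervals (lines) from edgeR's quasi-likelihood fit, for the 10 genes in black and the 15 other subunit genes tested in grey. Every interval includes 0, and those of Cacna1c, Cacna2d1 and Cacng3 start nearest to it, at -0.026, -0.020 and -0.0080.

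The sizes that these libraries could bound were moderate. For Cacna2d1 the interval ran from 0.99-fold to 1.55-fold of CD, and for Cacna1c from 0.98-fold to 1.72-fold. For Cacna1a it ran from 0.75-fold to 1.25-fold. The lowest count of any member in any library was 616, for Cacna1h in KD 1.

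The 16 other subunit genes of the family were next compared, of which 15 could be tested. None of the 15 had a raw p under 0.05 in edgeR's test, 9 estimates were above 0 and 6 below, and the median was 0.053. The beta subunits, which traffic the pore to the membrane, had log2 fold changes of 0.053 (Cacnb1), 0.078 (Cacnb2), 0.11 (Cacnb3) and -0.26 (Cacnb4). Cacnb4 was at 666, 740, 656 and 643 CPM in CD and at 649, 687 and 336 CPM in KD. KD 1 and KD 2 lay inside the CD range and KD 3 was well under it. The interval of the Cacnb4 estimate ran from -0.79 to 0.27 (adjusted p = 0.979 by edgeR with Benjamini-Hochberg).

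Of the remaining alpha2delta genes, Cacna2d3 had the lowest estimate of the family, -0.38 (SE 0.21, adjusted p = 0.979 by edgeR with Benjamini-Hochberg). It was at 155, 181, 183 and 253 CPM in CD and at 125, 196 and 119 CPM in KD. The groups overlapped, with KD 1 and KD 3 under the CD range and KD 2 inside it. Cacna2d4, low in cortex, had a log2 fold change of 0.037.

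The gamma genes mostly encode regulators of AMPA receptors (TARPs) rather than calcium channel subunits in brain. Cacng3 was at 32.4 to 38.9 CPM in CD and at 38.9, 41.9 and 43.0 CPM in KD, and the ranges met at CD 4 and KD 1. Its log2 fold change was 0.19 (SE 0.085, adjusted p = 0.979 by edgeR with Benjamini-Hochberg). Cacng2 (stargazin) was at -0.19 on the log2 fold change scale, Cacng4 at 0.38, Cacng6 at -0.19, Cacng7 at -0.17 and Cacng8 at -0.0012. Cacng5 had the highest estimate, 0.46, with a wide interval from -0.69 to 1.62. The pores of skeletal muscle and retina, Cacna1s and Cacna1f, were under 1.5 CPM in all libraries, with log2 fold changes of 0.088 and 0.24. Cacng1, the skeletal muscle gamma subunit, was under the filter, at 0 to 0.244 CPM.

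Proteins that bind or regulate the channels gave a like result. Of 39 listed genes, 38 were tested, 23 estimates were above 0 and 15 below, and none had a raw p under 0.05 (edgeR, median log2 fold change 0.022). Among the most abundant were Snap25, a SNARE protein that binds presynaptic channels, and Calm2, which encodes a calmodulin, the calcium sensor of channel inactivation. Their log2 fold changes were -0.12 (SE 0.18) and 0.071 (SE 0.14). The extremes were Stac, an adaptor of L-type channels, at -1.08 (SE 1.21), and Rrad, a small GTPase that inhibits channels through beta subunits, at 0.90 (SE 0.48). Both were scarce, with means of at most 1.57 CPM in either group.

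Genes for calcium stores, pumps, exchangers and buffers were treated in the same way. Of 32 listed, 29 were found and tested, 16 estimates were above 0 and 13 below, and none had a raw p under 0.05 (edgeR, median 0.044). The most abundant were the IP3 receptor Itpr1 at 0.044 (SE 0.27), the plasma membrane pump Atp2b1 at -0.090 (SE 0.17) and the exchanger Slc24a2 at -0.35 (SE 0.23), all as log2 fold changes. Itpr3 had the lowest estimate, -0.69 (SE 0.43), and the buffer Calb1 the highest, 0.78 (SE 0.36, adjusted p = 0.979 by edgeR with Benjamini-Hochberg). Calb1 was at 122, 162, 176 and 74.9 CPM in CD and at 145, 189 and 355 CPM in KD. KD 2 and KD 3 lay above the CD range and KD 1 inside it.

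Several members shared their order across mice. KD 3 held the highest value of 6 members (Cacna1b, Cacna1e, Cacna1c, Cacna1h, Cacna2d1 and Cacna2d2) and the lowest of 2 others (Cacna1a and Cacna1i), with 1 more, Cacna1g, under the CD mean. CD 3 held the highest value of Cacna1a and Cacna1g and lay above the CD mean for 9 of 10. The median distance of the members from the CD mean of log2 CPM was 0.41 in KD 3, 0.25 in CD 3 and 0.20 in KD 2, and from -0.12 to 0.022 in the other 4 libraries. CD 3, KD 2 and KD 3 were also the 3 libraries with the lowest sums of oligodendrocyte markers. The part of oligodendrocyte content in these levels was not tested beyond a fit with that content as a covariate. In that fit the log2 fold change was 0.17 for Cacna1e, 0.18 for Cacna1b and 0.23 for Cacna1c, against 0.31, 0.27 and 0.38 without the covariate. It was 0.23 for Cacna2d1 and 0.21 for Cacna1d, against 0.31 and 0.23. For Cacna2d2 it was 0.055 against 0.10, and for Cacna1i -0.11 against -0.14. Cacna1a was at -0.054 against -0.053, Cacna1g at -0.037 against -0.022 and Cacna1h at -0.11 against -0.018. Cacna1c was the 1 member with a raw p under 0.05 in the covariate fit, where 2.22% of all genes were under it (adjusted p = 0.9998 by edgeR with Benjamini-Hochberg).

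**Figure D3:**
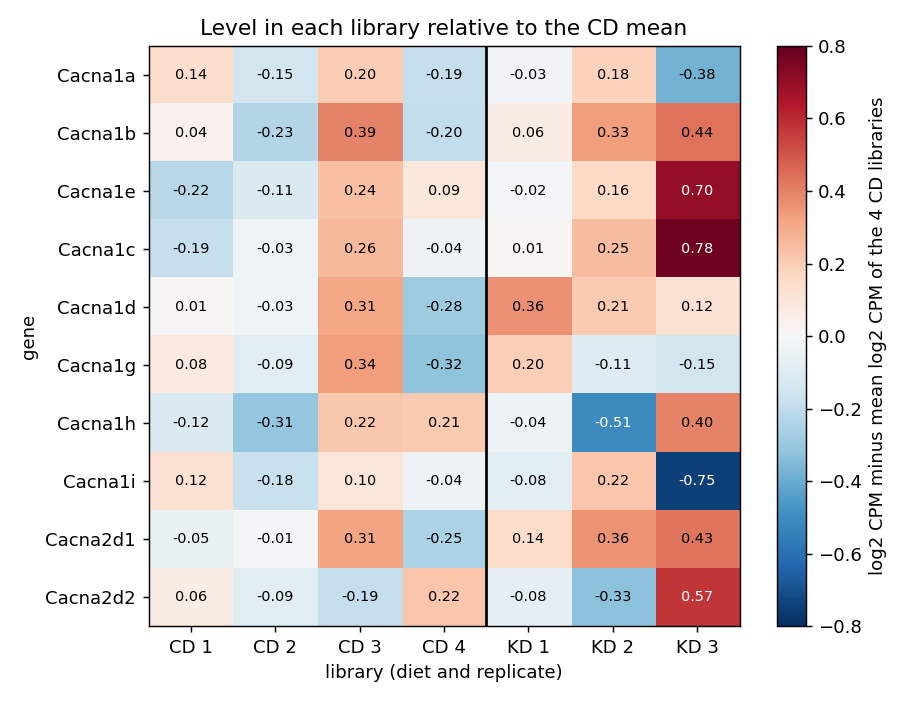
Log2 CPM of each gene (rows) in each library (columns) minus the mean log2 CPM of the 4 CD libraries, as colour and printed value, with CD left and KD right of the line. KD 3 holds both extremes, 0.78 for Cacna1c and -0.75 for Cacna1i, while KD 1 stays between -0.083 and 0.36.

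Ratios of CPM between members were formed within each library for 4 pairs. Cacna1a over Cacna1b in CPM was 1.12, 1.10, 0.911 and 1.04 in CD and 0.981, 0.938 and 0.593 in KD. Cacna1e over Cacna1a ran from 2.43 to 3.79 in CD and was 3.14, 3.06 and 6.57 in KD. In these ratios KD 1 and KD 2 lay inside the CD range and KD 3 outside it. Cacna1c over Cacna1d ran from 1.14 to 1.54 in CD and was 1.02, 1.34 and 2.05 in KD, with KD 1 and KD 3 outside the CD range on either side. Cacna2d1 over Cacna2d2 ran from 10.7 to 21.2 in CD and was 17.4, 24.1 and 13.5 in KD, where KD 2 and not KD 3 lay outside. Markers of other regions were also uneven between libraries. Lhx9, a transcription factor of ventral forebrain, thalamus and amygdala regions, was at 10.5 CPM in KD 3 and at most 0.385 CPM elsewhere, and the sum of 6 olfactory bulb markers was 60.6 CPM in KD 3 and 76.8 CPM in CD 4 against 4.96 to 10.7 CPM in the rest. The genes behind these sums differed, since KD 3 held 44.1 CPM of Trh and 12.9 CPM of Cdhr1 and at most 2.11 CPM of the other 4, whereas CD 4 held from 2.32 CPM (Tbx21) to 32.4 CPM (Cdhr1) of all 6. The sum of 6 hippocampus markers was 183 CPM in CD 4 and 142 CPM in KD 3, against 48.4 to 66.4 CPM elsewhere. Much of it was Wfs1, at 151 CPM in CD 4 and 117 CPM in KD 3. Of 6 striatum markers the sum was 252 CPM in KD 3, with 125 CPM of Penk, and 98.1 to 150 CPM elsewhere. For 6 thalamus markers it was 45.5 to 64.4 CPM in all 7 libraries. The part of the dissected region in the channel levels was not tested.

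Markers listed for fast-spiking interneurons, which use P/Q-type channels at their terminals, were summed in the same way. The sum of 8 such markers ran from 1095 to 1322 CPM in CD and from 926 to 991 CPM in KD, and 3 of the 8 (Syt2, Kcnc1 and Gad1) had raw p-values under 0.05 in edgeR's test, all lower in KD, where 1.52% of all genes were under it and lower, none of them past the adjusted threshold (adjusted p = 0.979, Benjamini-Hochberg). Gad1, a gene of GABAergic neurons in general, made up much of the sum, with a mean of 548 CPM in CD and 420 CPM in KD. Pvalb was at 67.3 to 110 CPM in CD and 18.6 to 67.9 CPM in KD, with a log2 fold change of -0.82 (SE 0.41). Tac1, Erbb4, Lhx6 and Kcnc2 had log2 fold changes of 0.53, 0.011, -0.046 and -0.083. Taken singly, 3 of the 8 markers had CPM ranges that did not overlap between the diets, against 4.2% of all genes. The CD and KD sums did not overlap, whereas the Cacna1a values did, and the part of these neurons in the member levels was not tested.

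Levels were also compared between genes per length of their exons, as RPKM, the CPM divided by the exon length in kilobases. Cacna2d1 had the highest RPKM of the 10 in all 7 libraries, with a median of 37.4 RPKM (range 28.4 to 45.4). Cacna1e followed at 14.9 RPKM (12.0 to 22.7), and its range did not meet that of Cacna2d1. Cacna1b (median 11.4), Cacna1i (10.3) and Cacna1a (9.74 RPKM) had overlapping ranges, and those of Cacna1b and Cacna1i also met the range of Cacna1e, although Cacna1e was above Cacna1b in all 7 libraries. Under a gap came Cacna1g (4.25), Cacna1d (4.11), Cacna2d2 (3.35), Cacna1c (2.95) and Cacna1h (2.70 RPKM), with each neighbour's range overlapping the next. With the longest coding transcript as the length in place of all exons, Cacna2d1 and Cacna1e again led and Cacna1h was again last, but Cacna1a moved above Cacna1b and Cacna1i, Cacna1d above Cacna1g, and Cacna1c above Cacna2d2.

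Set beside the rest of the family on the RPKM scale, Cacna2d1 was second by its median to Cacnb4, which was at 75.4 ± 4.86 RPKM in CD (SD, n = 4) and 62.2 ± 21.5 RPKM in KD (SD, n = 3). Summed over each class, beta subunits were at 101 to 119 RPKM in CD and 80.5 to 118 RPKM in KD. The pores summed to 53.8 to 71.1 RPKM in CD and 60.97 to 68.6 RPKM in KD, and the alpha2delta genes to 54.5 to 66.3 and 55.5 to 69.0 RPKM. The CD and KD sums overlapped in all 3 classes. Within alpha2delta, Cacna2d1 made up 46.0% to 63.5% of the RPKM sum in CD and 62.9% to 70.4% in KD, and Cacna2d3 made up 31.6% to 47.0% and 21.1% to 32.6%. Of the beta sum, Cacnb4 made up 62.6% to 71.0% in CD, 65.2% in both KD 1 and KD 2, and 46.6% in KD 3.

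The make-up of the pore transcripts was next expressed as a share of the RPKM sum of the 8 pore genes. P/Q-, N- and R-type pores together held 57.4% to 59.8% in CD and 57.6%, 60.6% and 66.1% in KD 1 to KD 3. T-type pores held 28.7% to 31.8% in CD and 29.5%, 27.7% and 20.6% in KD. L-type pores held 10.6% to 12.2% in CD and 11.7% to 13.3% in KD. The departure was widest in KD 3, where Cacna1e held 33.2% and Cacna1i 9.26%, against 20.2% to 26.5% and 16.0% to 19.5% in CD. These shares depend on the exon length taken for each gene, and with the longest coding transcript the T-type share was 23.7% to 26.4% in CD and 24.4%, 22.5% and 16.6% in KD. No test was made of the shares.

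**Figure D4:**
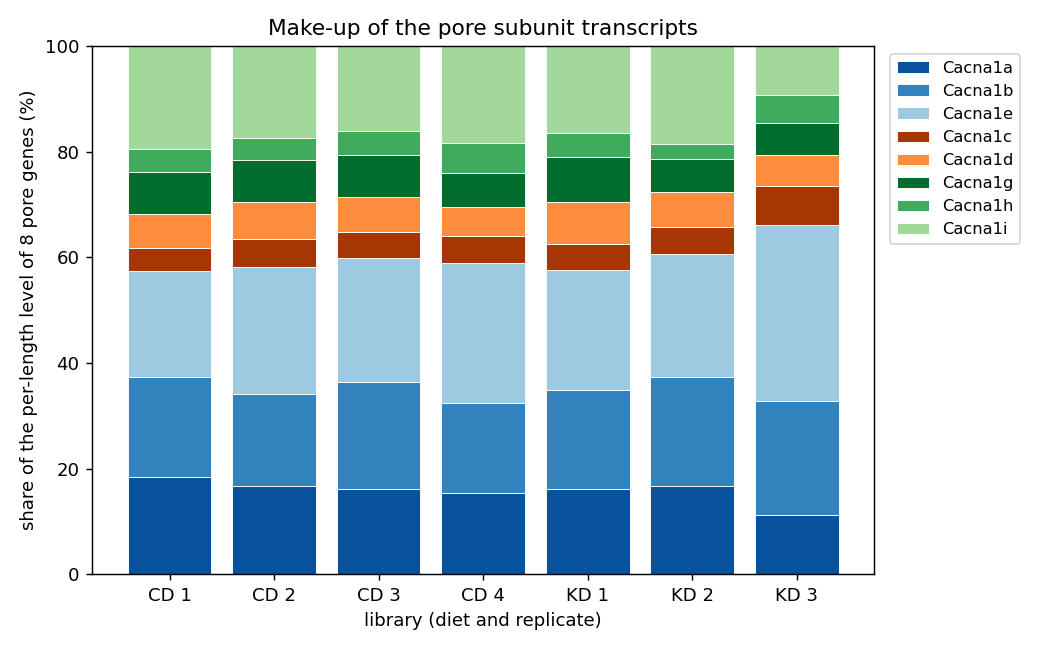
Share (vertical axis, percent) of each of the 8 pore genes in the RPKM sum of those genes, 1 stacked bar a library. The bars of CD 1 to CD 4, KD 1 and KD 2 are alike, and KD 3 has the widest Cacna1e section, at 33.2%, and the narrowest Cacna1i section, at 9.26%.

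Calcium entering through L-type channels is known to activate the transcription factor CREB, which binds the cAMP response element (CRE), and the promoters of the members were therefore searched for it. RefSeq promoter sequences (GRCm38.p6, 250 bases before to 50 after the start) were at hand for 7 members in 10 entries, and none were found for Cacna1a, Cacna1g and Cacna1h. The full element TGACGTCA, searched on both strands, was in 0 of the 10 entries and in 1.79% of all 32851 entries. Its core, TGACG or CGTCA, was in 4 of 10 entries, against 20.8% of all entries. The core contains a CG, and the entries that held it had 72.3% (Cacna1b), 80% (Cacna2d1), 51.3% (Cacna1c) and 62.7% GC (Cacna1i). Member entries without it ran from 40.3% to 87.3% GC. The median over all entries was 52.7%, and the shares were not matched for GC. The stretches around these 4 cores are shown with the core in capitals, each 101 bases of the gene's own strand. The core began 87 bases before the start in Cacna1b (chr2:24763187-24763287, minus strand), 146 in Cacna2d1 (chr5:15934497-15934597, plus strand), 161 in the most upstream of 3 Cacna1c entries (chr6:119196518-119196618, minus strand) and 72 in Cacna1i (chr15:80287118-80287218, plus strand).
Cacna1b: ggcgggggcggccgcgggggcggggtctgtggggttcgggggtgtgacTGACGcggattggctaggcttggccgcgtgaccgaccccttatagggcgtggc
Cacna2d1: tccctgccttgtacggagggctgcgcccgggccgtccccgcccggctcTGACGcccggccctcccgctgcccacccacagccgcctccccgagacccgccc
Cacna1c: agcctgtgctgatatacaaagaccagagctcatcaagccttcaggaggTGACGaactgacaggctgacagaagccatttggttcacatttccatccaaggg
Cacna1i: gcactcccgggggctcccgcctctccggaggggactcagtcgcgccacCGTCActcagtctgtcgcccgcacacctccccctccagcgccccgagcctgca
A match of these letters is a description of the sequence and not a site shown to be bound. Of these genes, 3 had positive log2 fold changes (0.27 for Cacna1b, 0.31 for Cacna2d1 and 0.38 for Cacna1c) and Cacna1i a negative one (-0.14), none past the test. Cacna1e and Cacna1d had positive estimates of 0.31 and 0.23 and no core in their entries.

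Reads could be shared with antisense genes at 4 members, since the strand setting of the counting was not given. The overlap was 4.67% of the exon bases of Cacna1d (with Chdh), 3.81% of Cacna1a (with Gm16183), 1.62% of Cacna1h (with Tpsg1) and 1.03% of Cacna2d2 (with Gm17141). The other 6 members overlapped no annotated exon of another gene. For Cacnb4 the overlap with A430018G15Rik was larger, at 16.0%.

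A few libraries decided how close the members came to the raw thresholds. Without CD 3, 4 members had a raw p under 0.05 in edgeR's test, where 7.38% of all genes did. These were Cacna2d1 at 0.42 (SE 0.12), Cacna1b at 0.42 (SE 0.12), Cacna1d at 0.34 (SE 0.13) and Cacna1c at 0.47 (SE 0.18), as log2 fold changes by the edgeR fit, with adjusted p = 0.674 for each (Benjamini-Hochberg). Of these 4, Cacna2d1 also had a raw p of at most 0.01, where 211 of the 15729 genes tested in that fit did. Without KD 1, 3 members passed (Cacna1e, Cacna1c and Cacna2d1, against 4.01% of genes). With both CD 3 and KD 3 left out, a choice made after seeing the data, 3 passed (Cacna1b, Cacna1d and Cacna2d1, against 5.57% of genes). Without CD 1, CD 2, CD 4, KD 2 or KD 3 no member did. The lowest adjusted p of any member over the 19 alternatives was 0.674 (edgeR, Benjamini-Hochberg).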

How the data were processed

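RNA was sequenced from the cortex of 7 APP/PS1 mice (TruSeq stranded total RNA libraries). The authors aligned reads to mm10 with STAR, per the labels and methods, and deposited raw counts per gene symbol for each mouse, without normalization. Versions, annotation and strand setting are not given in the sources used here. Groups came from the diet label.

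KD was compared with CD in edgeR 4.0.16 (R 4.3.3) with filterByExpr (15881 genes), TMM factors (0.978 to 1.04), and the robust quasi-likelihood fit and F test (glmQLFit, glmQLFTest) without covariates. Standard errors and intervals came from this fit, and Benjamini-Hochberg adjustment covered all tested genes. CPM used library totals. RPKM divided CPM by GENCODE M21 exon length. Procedures were tested on simulated data.

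The members and gene lists were chosen with earlier results of these data known. Named genes were the members, every beta, alpha2delta and gamma gene tested, and, in each list, genes with raw p under 0.05 (none), the 3 most abundant and the extremes of fold change. Other named genes are markers, of which Lhx9, Wfs1 and Penk were singled out after their values were seen. Some genes covered by these rules are not reported here.

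Alternatives were RLE, upper-quartile and unscaled normalization, 2 other filters, DESeq2 1.42.0, limma-voom (limma 3.58.1), the likelihood-ratio test, a replicate block, Xist and oligodendrocyte covariates, and leaving out libraries. Each library is 1 mouse, and p-values measure the spread between mice of unstated sex.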

Additional observations from a re-analysis of the deposited data

Results flagged for a closer look

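In the 4 CD libraries, 25 subunit genes were screened for a sample far from the others by the gap to the nearest value divided by the range. Chance gives about 1 in 20, or 1.25 of 25, and 2 genes stood out. For Cacna1s, the skeletal muscle L-type pore, the quotient was 0.893, with CD 3 at 0.946 CPM and the others from 0.712 to 0.737 CPM. This gene was scarce in all 4 libraries, and its gap was not compared with sampling noise. For Cacng5, a TARP gene, the quotient was 0.845, with CD 4 at 19.9 CPM and the others from 5.85 to 8.02 CPM. None of the 10 members stood out in this way, and the KD group of 3 was too small to be screened.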

How the results depend on the processing

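Normalization and filters left every call of the members and the sign of all 10 as they were, and so did DESeq2, limma-voom and the likelihood-ratio test. No member had an adjusted p under 0.05 in any of the 19 alternatives. Cacna1b, Cacna1e, Cacna1c, Cacna1d and Cacna2d1 kept a positive log2 fold change in 19 of 19, and Cacna1a kept its sign in 16, Cacna1g in 15, Cacna1h in 14, Cacna1i in 17 and Cacna2d2 in 17 of 19.

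Whether the replicate numbers pair the mice was not stated and could not be decided here. The correlations of deviations of same-numbered libraries were 0.251, 0.195 and 0.098, and differently numbered libraries were not compared. A fit with the replicate block, on replicates 1 to 3 of each diet, called 182 genes at the raw threshold of 0.01 and 923 at 0.05. Of the members, 3 had a raw p under 0.05 (Cacna1e, Cacna1c and Cacna2d1, where 5.89% of genes did), and the log2 fold change of Cacna1h, not among them, was 0.010.

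The count of genes at a raw p of at most 0.01 was 51 and moved to 132 with DESeq2, 103 with the likelihood-ratio test, 227 with Xist as a covariate and 156 without CD 3 and KD 3, and from 19 (without CD 1) to 211 (without CD 3) on leaving out 1 library. At a raw p under 0.05 the count of 506 moved to 1105 with Xist and 894 without CD 3 and KD 3, and from 256 to 1161 without 1 library. At an adjusted p under 0.05, 1 gene, no member, was called with the likelihood-ratio test and 1 with Xist. Of the members, 2 (Cacna1e and Cacna1c, where 6.96% of genes did) had a raw p under 0.05 with Xist, 1 with the oligodendrocyte covariate, 3 without CD 3 and KD 3, and from 0 to 4 without 1 library. At a raw p of at most 0.01 it was 1 with Xist (Cacna1e, where 227 of 15881 genes passed), and 0 to 1 without 1 library. Without CD 3 and KD 3, the log2 fold change was 0.17 for Cacna1a, 0.18 for Cacna1g, 0.13 for Cacna1i and -0.24 for Cacna2d2, and with Xist that of Cacna1h was 0.022. Leaving out 1 library gave ranges of -0.20 to 0.092 for Cacna1a, -0.14 to 0.10 for Cacna1g, -0.25 to 0.17 for Cacna1h, -0.38 to 0.096 for Cacna1i and -0.18 to 0.27 for Cacna2d2, and of 0.19 to 0.42 for Cacna1b, 0.085 to 0.45 for Cacna1e, 0.15 to 0.53 for Cacna1c, 0.13 to 0.34 for Cacna1d and 0.21 to 0.42 for Cacna2d1. Of these, the estimates above 0 for Cacna1a came without CD 3 or KD 3, and that below 0 for Cacna2d2 came without KD 3. The cause was not tested. Every member had at least 616 counts in every library.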
